A study of Mus musculus with 8 samples.

Results

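Serum exosome RNA from mice that carried the canine osteosarcoma line OSCA-40 was compared with that from mice given phosphate-buffered saline (PBS), both at week 8. The 4 libraries were chosen by their labels, 2 from each treatment, of 8 libraries in all. The mice were of the athymic strain NCr nu/nu, which lacks most T cells and so tolerates cells of another species, and the sources used here give no age. The OSCA-40 group received 100000 cells in 10 µl into the tibia and the PBS group 10 µl of PBS by the same route. The other 4 libraries, 2 from serum drawn before any injection (week 0) and 2 from mice given the line OSCA-32 at the same cell number, entered the fit for its estimate of spread and are given beside the results. Serum was pooled within a group. The labels do not state whether the paired libraries of a treatment stem from different mice, different pools or repeats of one pool. Each p-value below therefore reflects library-to-library spread alone, which may be technical.

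Exosomes are small vesicles that cells release when an endosomal compartment fuses with the outer membrane, and they carry proteins and RNA of the cell of origin. In blood, vesicles and co-purified particles come largely from platelets, red cells, endothelium, leukocytes and liver, and a tumour in bone can add its own. Osteosarcoma is a malignant tumour of cells that lay down bone matrix, and it is common in large dogs. The host is a mouse and the graft is canine, and the table lists genes of both species, but canine genes also held values in mice that received no canine cells.

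The deposited values behave as TPM, length-normalised shares of a library, over mouse and canine genes together, so a larger canine share leaves less of the total to mouse genes. Canine genes held 14.73% and 15.25% of the total in the PBS libraries and 68.44% and 70.74% in the OSCA-40 libraries. The means, 15.0% ± 0.363 and 69.6% ± 1.62 (SD, n = 2 each), differed by 54.6 percentage points, and the exact two-sided permutation p of 0.3333 is the smallest that 2 libraries against 2 allow. Mouse values were therefore multiplied by a factor per library that aligns the bulk of mouse genes, 0.961 and 0.948 for PBS and 2.949 and 3.07 for OSCA-40. A deposited value of 1 in an OSCA-40 library thus stands for about 3 scaled units, and low genes are resolved more coarsely there: 1982 and 1868 mouse genes reached a deposited value of 10 in the OSCA-40 libraries, against 7069 and 7131 with PBS. Between the libraries of a group, 92.07% of mouse genes tested lay within 2-fold with PBS and 82.97% with OSCA-40. The sequencing depth behind the values is unknown. In bulk serum RNA, fewer vesicles from a cell type and less RNA per vesicle cannot be told apart.

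Relative to the bulk of mouse genes, 232 of 7655 mouse genes tested were higher with OSCA-40 (3.03%) and 178 were lower (2.33%), at a Benjamini-Hochberg adjusted p of 0.05 or less in limma. Genes that rose included members of the lists for platelets (Pf4, Tmsb4x), red cells (Hba-a2), liver (Apoe, Fabp1) and mitochondria (mt-Nd4, mt-Cytb). Genes that fell included the myeloid receptor gene Cd300lf, the complex I gene Ndufb2, the cohesin release factor gene Wapl and the tetraspanin gene Cd9. The median log2 fold change of all mouse genes tested was -0.03 on the log2(scaled value + 1) scale, used for every fold change here, and -1.51 as deposited. With library totals in place of the scaling, 15 mouse genes were higher and 6539 lower. The counts rested in part on single PBS libraries: without the first, 98 genes were higher and 56 lower, and without the second, 121 and 58. The larger direction turned without either OSCA-40 library, with 168 higher and 247 lower without the first and 190 and 249 without the second.

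**Figure D1:**
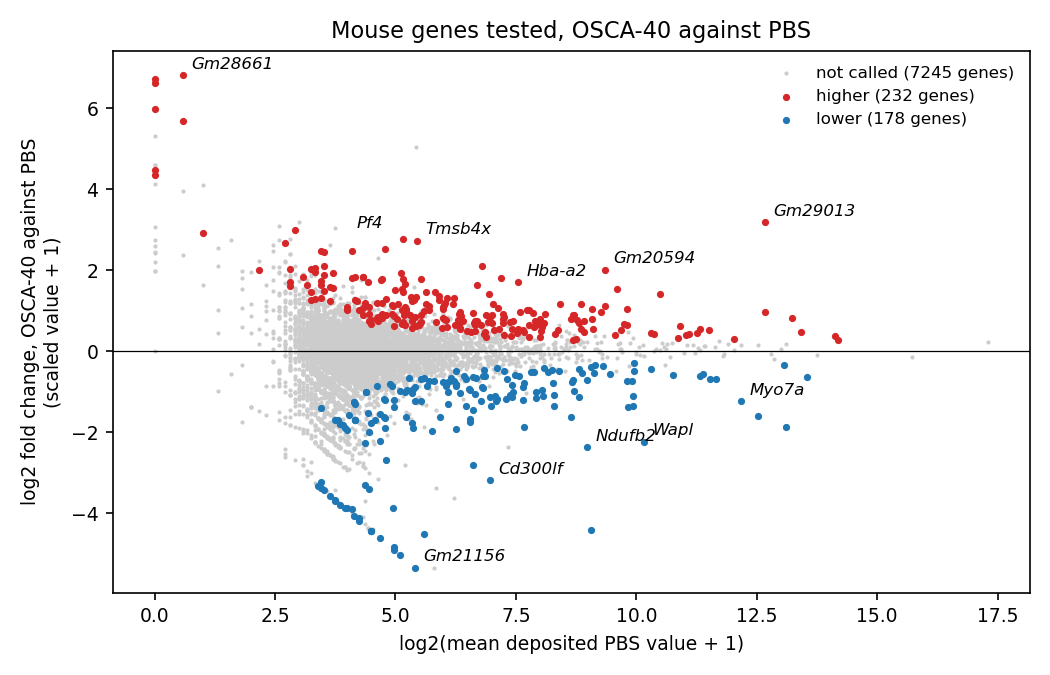
Each point is 1 of 7655 mouse genes, with the mean deposited PBS value on a log2 scale on the x axis and the log2 fold change of OSCA-40 against PBS after scaling on the y axis. Red points are the 232 genes higher and blue points the 178 genes lower in limma; the diagonal edge at the lower left is formed by genes listed at 0 with OSCA-40.

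Calls were unevenly spread over the range of expression. Among the 68 genes with a mean deposited PBS value over 1000, 17 were higher and 12 lower, whereas among the 3520 genes between 10 and 20 there were 21 and 29. The 1441 genes at 10 or less held 26 higher and 4 lower. A gene that low with PBS can enter the test through high values in other groups. The part of the filter in these counts was not tested. Protein-coding genes made up 187 of the genes higher and 130 of those lower. Of 1064 pseudogenes tested, 44 were higher and 45 lower. Median transcript length was 2432 bases for genes higher, 2646 for genes lower and 3172 for genes not called.

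A smaller group stood above PBS without any scaling. Of the 232 genes called higher, 23 had both OSCA-40 values above both PBS values as deposited, an arrangement found in 32 of all 7655 mouse genes tested (0.418%). In 7 of the 23, no stretch of 31 bases of the transcript occurred in another listed mouse gene: Pf4, Tmsb4x, Apoe, Fabp1, B2m, Ccdc107 and Gm20594. Sequence shared with canine genes was not tested. All 178 genes called lower were below both PBS libraries as deposited, but so were 92.5% of all mouse genes tested.

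On the platelet and megakaryocyte list, 2 of the 3 genes called rose both as deposited and after scaling. Pf4, the chemokine stored in platelet alpha granules (chromosome 5, 90772435 to 90773383, GRCm38), had deposited values of 39 and 30 with PBS and 85 and 69 with OSCA-40. After scaling these were 37.5 and 28.4 against 250.7 and 211.8, a log2 fold change of 2.78 ± 0.26 (SE; adjusted p = 0.001, limma). Tmsb4x, which encodes the actin-sequestering peptide thymosin beta 4 (chromosome X, 167207093 to 167209315), went from 43 and 42 to 95 and 88 as deposited. Its change was 2.73 ± 0.14 (adjusted p = 7.23e-05, limma). Tmsb4x also stands on the actin cytoskeleton list, so it does not mark platelets alone. For both genes the groups did not overlap on either scale, and both passed without each of the 8 libraries. Ppbp, the precursor of another platelet chemokine, was 7 and 9 with PBS and 9 and 8 with OSCA-40 as deposited, so the groups overlapped before scaling. It rose by 1.63 ± 0.28 after scaling, and lost the call without either PBS library (adjusted p = 0.0974 and 0.0572, limma) or the first OSCA-40 library (0.0623). Of 6 tested genes of the platelet and megakaryocyte list, these 3 were higher and none lower, with a median of 0.99 against -0.03 for all mouse genes. Over all mouse genes tested 3.03% were higher, and over the 30 lists 20 of 289 tested members were. The surface receptor gene Itga2b, at 0.36 ± 0.31, and the adhesive glycoprotein gene Vwf, at 0.36 ± 0.12, did not pass. The scaled sum over the 20 listed platelet genes was 287.5 and 254.0 with PBS and 819.9 and 749.1 with OSCA-40, with Nrgn listed at 0 in the 4 libraries. Of these sums Tmsb4x gave 41.3 and 39.8 with PBS and 280.2 and 270.2 with OSCA-40. The part of platelet RNA in the other changes was not tested.

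**Figure D2:**
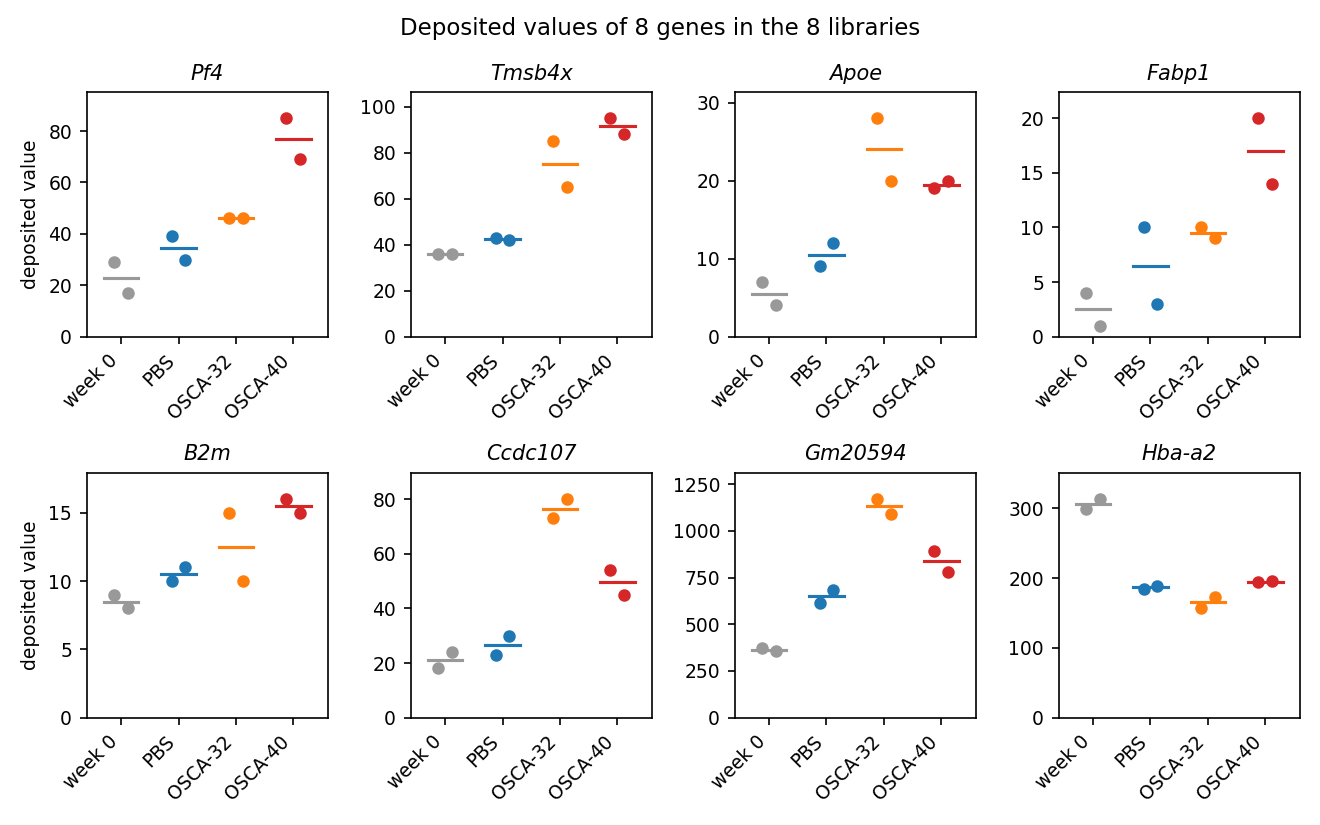
Deposited values (y axis, starting at 0, no unit) of 8 genes in the 8 libraries, with 1 point per library, a line at the mean of each group of 2, and groups named on the x axis. Pf4 and Tmsb4x stand highest with OSCA-40, at 69 or more and 88 or more, whereas Hba-a2 is nearly level between PBS and OSCA-40 and highest at week 0.

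Of 10 tested erythroid genes 1 rose, where 3.03% of all mouse genes tested were higher. Hba-a2, which encodes the alpha chain of haemoglobin (chromosome 11, 32296489 to 32297298), was 184 and 189 with PBS and 194 and 196 with OSCA-40 as deposited, and 176.9 and 179.1 against 572.1 and 601.7 after scaling. The change was 1.72 ± 0.07 (adjusted p = 1.68e-05, limma). Before injection Hba-a2 had stood at 299 and 313, and the difference of PBS at week 8 from week 0 was -0.77 (adjusted p = 0.0173, limma), so the change of OSCA-40 against week 0 was 0.95. Its sister gene Hba-a1, which shares 91.03% of the 31-base stretches of Hba-a2, was 15 and 29 against 12 and 20 as deposited, at 1.19 ± 0.41, and did not pass. Reads of these copies may be divided between them; summed, they were 199 and 218 with PBS and 206 and 216 with OSCA-40 as deposited. Scaled, the sums were 191.3 and 206.6 against 607.5 and 663.1, a log2 change of 1.67 with no overlap. The beta-globin gene Hbb-bs was 62 and 49 against 27 and 23, at 0.50 ± 0.17, and did not pass. The median over the erythroid list was 0.73.

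Liver products rose in part. Apoe, the ligand that carries lipoprotein remnants to their receptors (chromosome 7, 19696109 to 19699188), went from 9 and 12 to 19 and 20 as deposited, a change of 2.45 ± 0.30 (adjusted p = 0.00388, limma). Apoe is also made by macrophages. Fabp1, the fatty acid carrier of hepatocytes and gut, was 10 and 3 with PBS and 20 and 14 with OSCA-40, at 3.01 ± 0.60. The PBS libraries lay far apart, and the call was lost without the second PBS library (2.27, adjusted p = 0.132, limma), either OSCA-32 library (0.0604 and 0.0596) or either OSCA-40 library (0.113 and 0.0746). Albumin, Alb, was 7 and 13 against 11 and 11 as deposited and overlapped there. It rose by 1.75 ± 0.31 after scaling, with the call lost without the first PBS library (adjusted p = 0.0877, limma) or either OSCA-40 library (0.0669 and 0.0711).

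The iron carrier gene Trf was 21 and 22 with PBS and 13 and 11 with OSCA-40 as deposited, lower before scaling and higher after it, at 0.78 ± 0.17. It was called in 2 of the 8 fits that left out 1 library, with adjusted p from 0.059 to 0.19 (limma) without either PBS, OSCA-40 or week 0 library. The apolipoprotein gene Apoc4, at -0.27 ± 0.13, did not pass. Of 9 tested genes for proteins secreted by hepatocytes 3 were higher and none lower (median 0.56), and of 5 for hepatocyte enzymes and carriers 1 was higher (median 1.01). The share over all mouse genes tested was 3.03% higher and 2.33% lower. The acute-phase gene Saa2 was 7 and 10 against 11 and 13 as deposited and rose by 2.04 ± 0.32. It met the filter for testing only with its OSCA-40 values, so its call is partly set by the filter. It lost the call without the first PBS library (adjusted p = 0.0792, limma) or the second OSCA-40 library (0.0589), and the other 4 tested genes of the acute phase list did not pass.

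MHC class I presents peptides to T cells, and calls among its genes went in both directions. B2m, the shared light chain (chromosome 2, 122147686 to 122153083), was 10 and 11 with PBS and 16 and 15 with OSCA-40 as deposited, a change of 2.11 ± 0.25 (adjusted p = 0.00298, limma). H2-Q4, a non-classical heavy chain gene (chromosome 17, 35379617 to 35385290), was 322 and 301 against 50 and 44 as deposited and 309.6 and 285.2 against 147.5 and 135.1 after scaling, a change of -1.07 ± 0.08 (adjusted p = 0.000389, limma). Its neighbour H2-Q6, at -0.22 ± 0.14, did not pass. H2-Q4 shares 37.568% of its 31-base stretches with other listed genes. H2-T24, another class I heavy chain gene (chromosome 17, 36005695 to 36020560), was chosen after its values were seen and is not on the list. It was 17 and 15 against 23 and 15 as deposited, overlapping there, and rose by 1.81 ± 0.29 after scaling (adjusted p = 0.0112, limma). The H2-T24 call was lost without either PBS library (adjusted p = 0.0615 and 0.0845, limma) or the first OSCA-40 library (0.0541). Of 9 tested genes of the antigen processing list, B2m and H2-Q4 were the 2 that passed, with a median of -0.14. Among all mouse genes tested 3.03% were higher and 2.33% lower.

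Other cell types of the blood and vessel wall gave single calls, where 3.03% of all mouse genes tested were higher and 2.33% lower. Pecam1, the adhesion molecule of endothelial junctions that platelets also carry, was 29 and 25 against 21 and 22 as deposited and rose by 1.30 ± 0.15 after scaling (adjusted p = 0.00291, limma). It was the 1 called gene of 9 on the endothelial list, where the VEGF receptor gene Flt1 stood at -0.96 ± 0.24 and did not pass. Cd300lf, an inhibitory receptor of myeloid cells (chromosome 11, 115116214 to 115133992), was 122 and 124 with PBS and 4 and 4 with OSCA-40 as deposited. After scaling it was 117.3 and 117.5 against 11.8 and 12.3, a change of -3.18 ± 0.13 (adjusted p = 1.45e-05, limma). The other 3 tested genes of the monocyte and macrophage list did not pass, nor did any of the 4 neutrophil, 4 B cell or 6 T and NK cell genes. Of 9 interferon-stimulated genes only Xaf1 was called, at 1.20 ± 0.26; it passed in 2 of the 8 fits that left out 1 library, with adjusted p from 0.0799 to 0.203 (limma) without either PBS, OSCA-40 or week 0 library. Oasl2, at 0.60 ± 0.16, did not pass.

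Genes of vesicle components were examined because the RNA is labelled as exosomal. All 27 genes of that list were listed above 0 in at least 1 of the 4 libraries. So were most mouse genes: of 31300, 28467 and 28143 were at 1 or more in the PBS libraries. Presence therefore does not test the labelled source. Of the vesicle list, 11 genes were tested. Cd9, a tetraspanin of exosome membranes (chromosome 6, 125460266 to 125494791), was the only one called. It was 208 and 192 with PBS and 29 and 26 with OSCA-40 as deposited, and 199.97 and 181.95 against 85.5 and 79.8 after scaling, a change of -1.20 ± 0.11 (adjusted p = 0.000785, limma). With PBS the other 26 genes stood at 24 or less, and the tetraspanin gene Cd82 was 16 and 24 against 3 and 3, at -0.98 ± 0.47, and did not pass. A further pair of membrane traffic genes, chosen after their values were seen, were lower: Snf8, of the ESCRT-II complex that sorts cargo into vesicles, at -1.12 ± 0.18, and Vamp3, a membrane fusion protein of recycling endosomes, at -1.19 ± 0.20. Both lost the call without either PBS library (adjusted p = 0.0898 and 0.0545 for Snf8, 0.102 and 0.0749 for Vamp3, limma), and Vamp3 also without the second OSCA-40 library (0.0588). The median over the vesicle list was -0.07, and 2.33% of all mouse genes tested were lower.

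**Figure D3:**
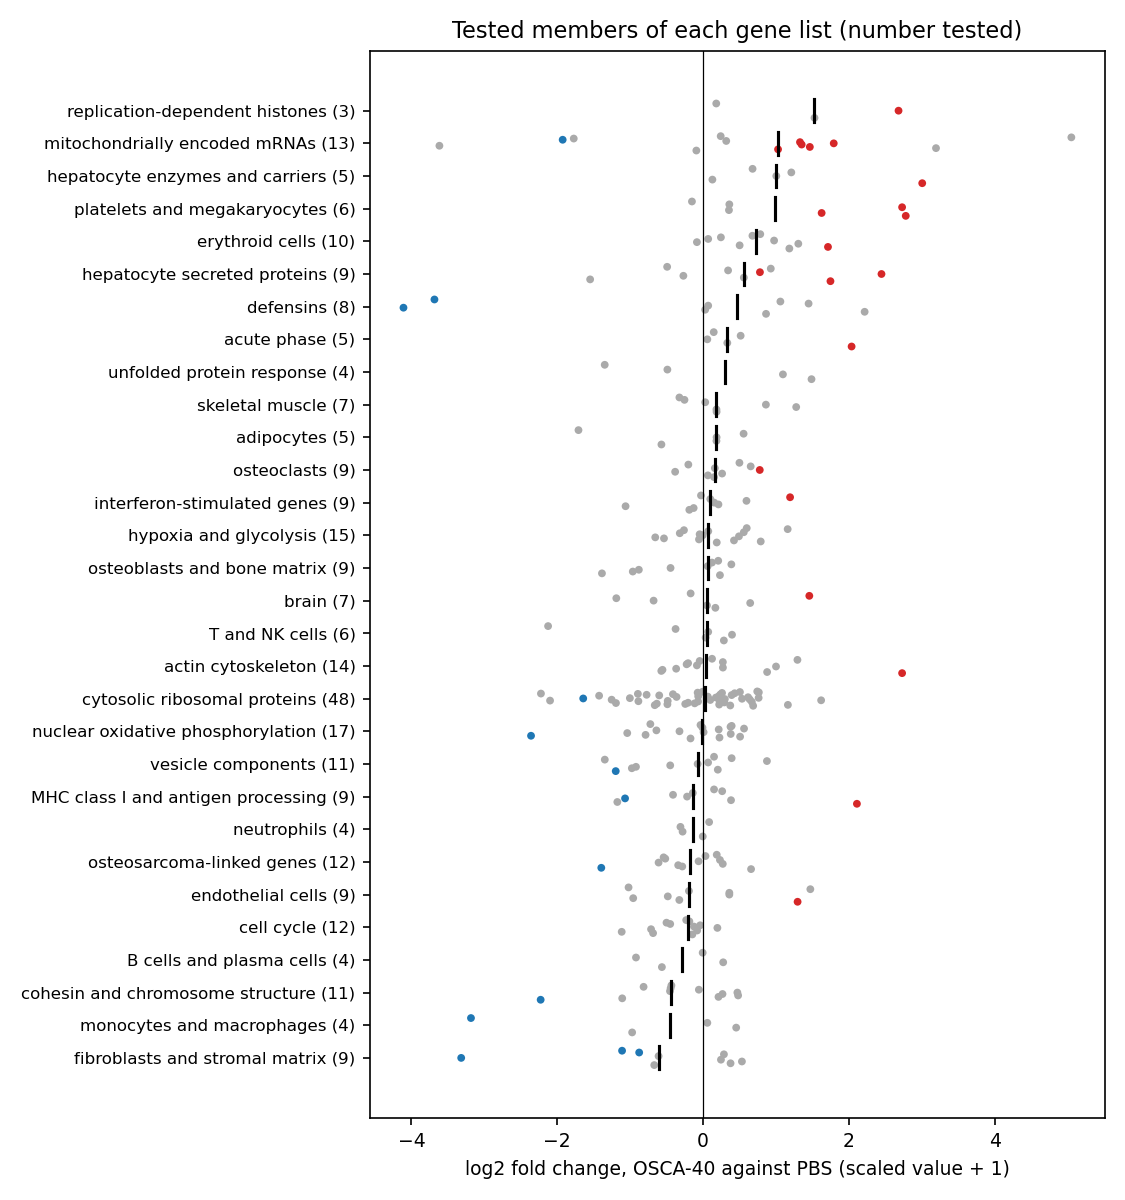
Log2 fold change of OSCA-40 against PBS (x axis) for every tested member of 30 gene lists (y axis, number tested in parentheses), with red points for genes called higher, blue for lower and grey for not called, and a black bar at the median. The platelet list has its median at 0.99 and 3 red points, whereas the ribosomal protein list of 48 genes centres at 0.03 with 1 blue point.

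Bone, stromal and tumour lists held few called genes. Of 9 tested genes of fibroblasts and stromal matrix 3 were lower and none higher, with a median of -0.61; over all mouse genes tested 2.33% were lower and 3.03% higher. Ltbp1, which anchors latent TGF-beta in the matrix (chromosome 17, 75005568 to 75392512), was 1010 and 946 against 139 and 148 as deposited, a change of -1.11 ± 0.07 (adjusted p = 0.000175, limma). Ddr2, a collagen receptor, was 208 and 193 against 35 and 34, at -0.88 ± 0.11 (adjusted p = 0.00408, limma). The proteoglycan gene Vcan was 11 and 8 with PBS and listed at 0 in both OSCA-40 libraries, and lost the call without either PBS library (adjusted p = 0.132 and 0.0825, limma) or the first week 0 library (0.0529). Fibronectin, Fn1, at 0.25 ± 0.18, did not pass.

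No gene of the osteoblast and bone matrix list (9 tested), the hypoxia and glycolysis list (15 tested) or the cell cycle list (12 tested) was called, though 11 of the 12 cell cycle genes had a negative fold change. On the osteoclast list Clcn7, the chloride transporter of the resorbing membrane, was 435 and 438 against 221 and 256 as deposited and rose by 0.78 ± 0.10 after scaling (adjusted p = 0.00396, limma). Its partner in acid secretion, Tcirg1, at 0.65 ± 0.23, did not pass. Mdm2, the p53 ubiquitin ligase that is amplified in some osteosarcomas, was 10 and 10 against 1 and 1 as deposited, at -1.40 ± 0.29. It was called in none of the 8 fits that left out 1 library (adjusted p from 0.052 to 0.166, limma).

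Mitochondrially encoded mRNAs, which specify subunits of the respiratory chain and ATP synthase, had a median of 1.03, and 5 of 13 were higher and 1 lower. Across all mouse genes tested 3.03% were higher and 2.33% lower. mt-Nd4, a complex I subunit, was 37 and 32 with PBS and 35 and 27 with OSCA-40 as deposited, so that it held its level while the bulk of mouse genes fell, and changed by 1.47 ± 0.15 after scaling (adjusted p = 0.00167, limma). mt-Cytb, of complex III, was 35 and 43 against 33 and 30, at 1.33 ± 0.17 (adjusted p = 0.00396, limma). mt-Nd6 was 40 and 51 against 51 and 50, at 1.79 ± 0.29, and lost the call without the first PBS library (adjusted p = 0.0845, limma) or either OSCA-40 library (0.0506 and 0.0517). Part of this direction was present without a graft: mt-Cytb stood at 14 and 13 at week 0, and PBS was higher than week 0 by 1.40 (adjusted p = 0.0403, limma). Against week 0 the changes with OSCA-40 were 2.43 for mt-Nd4 and 2.73 for mt-Cytb. Of 17 tested nuclear genes of oxidative phosphorylation, in contrast, only Ndufb2 was called, and it was lower. This accessory subunit of complex I (chromosome 6, 39592574 to 39603382) was 468 and 541 with PBS and 34 and 28 with OSCA-40 as deposited, a change of -2.36 ± 0.11 (adjusted p = 2.78e-05, limma).

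The value of mt-Co2, the mitochondrial mRNA called lower, depends on a nuclear copy. Chromosome 1 holds copies of 7 of the 13 mitochondrial mRNAs at 99% identity or more over at least 200 bases, and the copy Gm28661 (chromosome 1, 24614885 to 24615565, minus strand) matches mt-Co2 in all 681 aligned bases. The first 150 bases of both transcripts, from GENCODE on GRCm38, are printed to show that no read within them can tell the copies apart.
Gm28661: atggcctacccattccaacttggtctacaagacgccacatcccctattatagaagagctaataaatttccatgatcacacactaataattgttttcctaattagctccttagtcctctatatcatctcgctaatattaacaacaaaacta
mt-Co2: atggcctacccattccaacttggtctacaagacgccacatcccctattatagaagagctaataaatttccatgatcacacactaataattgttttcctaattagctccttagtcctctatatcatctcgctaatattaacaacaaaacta
As deposited, mt-Co2 was 67 and 84 with PBS and 9 and 4 with OSCA-40, while Gm28661 was 0 and 1 against 57 and 47. Alone, mt-Co2 changed by -1.93 ± 0.32 (adjusted p = 0.0134, limma), a call lost without either PBS library (0.0639 and 0.106). Summed with its copy it was 67 and 85 against 66 and 51 as deposited, and the change was 1.27 ± 0.16 (adjusted p = 0.00386, limma). At week 0 the split was again on the side of the copy, with mt-Co2 at 4 and 4 and Gm28661 at 24 and 28. The same exchange was seen between mt-Nd4l, at 67 and 80 against 11 and 0, and its identical copy Gm10222, at 0 and 0 against 27 and 39. The split also differed between libraries of one group. At week 0, mt-Nd4l and Gm10222 were 20 and 0 in the first library and 0 and 27 in the second, and with OSCA-32 they were 0 and 102, then 47 and 19. With PBS, mt-Atp6 and its copy Gm10925 were 0 and 90 in the first library and 84 and 19 in the second. With all 7 mRNAs summed with their copies, 8 of 13 were higher and none lower, and mt-Atp6 changed by 1.68 ± 0.13.

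Exchanges of this kind were found outside the mitochondrial genes too. The pseudogenes Gm21139 (chromosome Y, 3349656 to 3350532, minus strand) and Gm21156 (chromosome Y, 3414421 to 3415289, minus strand) differ in 1 of 869 aligned bases. Bases 1 to 150 of each transcript hold that difference, which is in capitals.
Gm21139: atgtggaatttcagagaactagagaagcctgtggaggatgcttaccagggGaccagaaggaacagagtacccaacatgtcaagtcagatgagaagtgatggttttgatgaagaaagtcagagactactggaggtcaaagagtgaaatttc
Gm21156: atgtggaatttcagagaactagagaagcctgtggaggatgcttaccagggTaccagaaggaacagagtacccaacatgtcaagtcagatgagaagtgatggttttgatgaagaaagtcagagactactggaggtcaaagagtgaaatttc
Gm21139 was 0 and 1 with PBS and 24 and 23 with OSCA-40 as deposited, and passed as higher (5.68 ± 0.67, adjusted p = 0.003, limma). It met the filter for testing only with its OSCA-40 values. Gm21156 was 38 and 45 with PBS and listed at 0 in both OSCA-40 libraries, and passed as lower (adjusted p = 0.0118, limma), a call lost without either PBS library (0.0742 and 0.0859) or either OSCA-40 library (0.0541 and 0.052). Their sum was 38 and 46 against 24 and 23 as deposited, and 36.5 and 43.6 against 70.8 and 70.6 after scaling. With OSCA-32, Gm21139 was 32 and 8 and Gm21156 was 3 and 33, so the split differed between libraries of 1 group. Both were chosen after their values were seen, as were Gm28661, Gm10222 and mt-Co2.

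**Figure D4:**
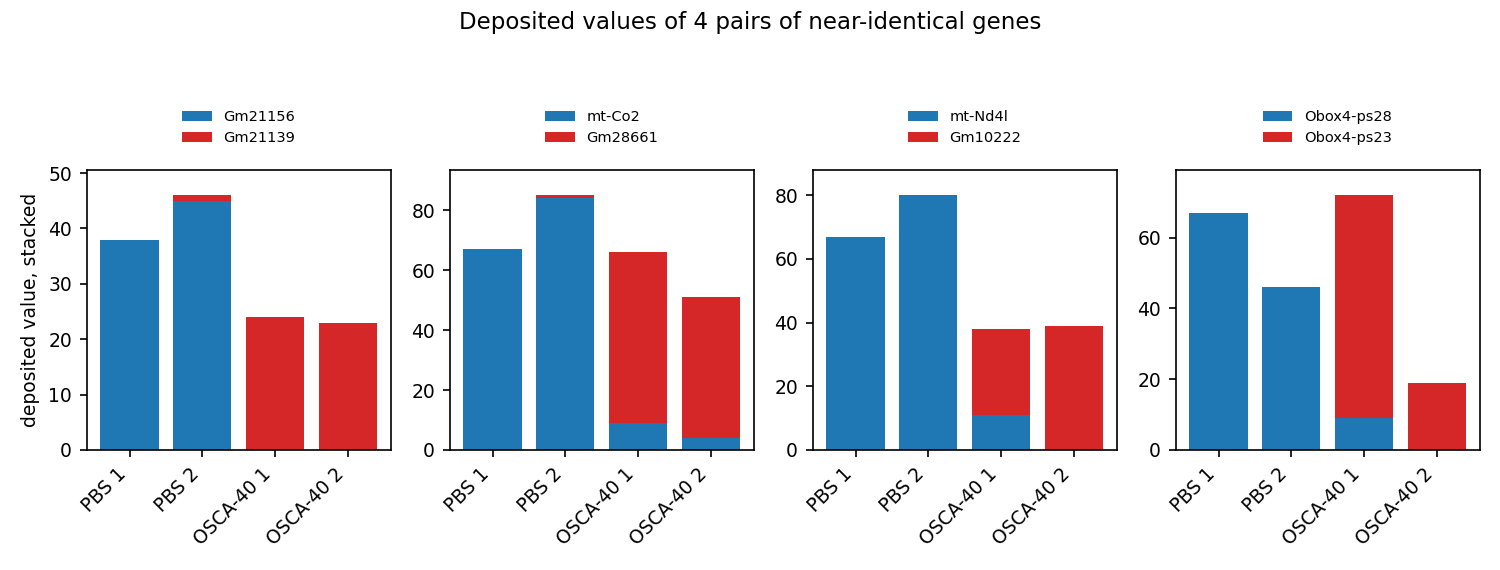
Stacked deposited values (y axis, starting at 0) of 4 pairs of near-identical genes in the 2 PBS and 2 OSCA-40 libraries (x axis), blue for the member that holds the value with PBS and red for its copy. In each pair the red member holds most or all of the value with OSCA-40, and for Gm28661 with mt-Co2 the stack is 67 and 85 with PBS against 66 and 51.

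Among genes with an established symbol, the pseudogene Obox4-ps23 exchanged with a copy as well. Obox4-ps23, a homeobox pseudogene (chromosome 7, 15263943 to 15265656), was listed at 0 with PBS and at 63 and 19 with OSCA-40 (adjusted p = 0.0203, limma), while Obox4-ps28, which differs in 1 of 1137 aligned bases, was 67 and 46 against 9 and 0. Obox4-ps23 was listed at 0 with OSCA-32 and at week 0 too, so it met the filter through its OSCA-40 values alone. The Obox4-ps23 call was lost without either PBS library (adjusted p = 0.0606 and 0.063, limma) or the first OSCA-40 library (0.121), and the sums, 67 and 46 against 72 and 19 as deposited, overlapped. Rdh16f1, a member of the retinol dehydrogenases, stood at 0 with PBS and at 21 and 20 with OSCA-40 (adjusted p = 0.000313, limma). It shares 89.33% of its 31-base stretches with Rdh9, which was 175 and 197 against 51 and 47. Scaled, the Rdh16f1 and Rdh9 sum was 168.2 and 186.7 with PBS and 212.3 and 205.7 with OSCA-40. Trim5, a restriction factor gene against retroviruses, was listed at 0 with PBS and at 7 and 6 with OSCA-40 (adjusted p = 0.0172, limma). It was 10 and 11 with OSCA-32. Other listed mouse genes share 47.501% of its 31-base stretches. The nearest, Trim12c, shares 39.15% and was listed at 0 in the 8 libraries.

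Over all called genes, 27 of the 232 higher and 27 of the 178 lower shared at least 50% of their 31-base stretches with 1 other mouse gene. When each was summed with that partner, the median change of the genes higher went from 1.504 to 0.87, and 25 of 27 sums still lay above PBS without overlap. The median of the genes lower went from -3.43 to -0.65; 19 sums lay below PBS, 3 overlapped and 5 lay above. Among all mouse genes tested, 23.6% lay above PBS without overlap after scaling and 25.6% below. Genes of which at least 50% was shared with any other genes made up 13.79% of those higher, 19.77% of those lower and 9.642% of those not called.

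Large decreases were also found in genes with high values and no 31-base stretch shared with another listed mouse gene. Canine genes were not searched for such stretches. Wapl, which releases cohesin rings from chromosomes (chromosome 14, 34673928 to 34747983), was 1179 and 1112 with PBS and 72 and 83 with OSCA-40 as deposited. After scaling it was 1133 and 1054 against 212.3 and 254.8, a change of -2.23 ± 0.10 (adjusted p = 3.43e-05, limma). The other 10 tested genes of the cohesin and chromosome structure list did not pass, and their list median was -0.43. A further 3 genes with no shared 31-base stretch, chosen after their values were seen, behaved likewise. Myo7a, an unconventional myosin of sensory hair cells, was 4533 and 4669 against 586 and 665 as deposited (-1.23 ± 0.08, adjusted p = 0.000203, limma). Herc3, a ubiquitin ligase gene, was 915 and 909 against 111 and 111 (-1.38 ± 0.09, adjusted p = 0.000143, limma). Paip2, an inhibitor of poly(A)-binding protein in translation, was 196 and 210 against 15 and 20 (-1.87 ± 0.15, adjusted p = 0.000559, limma). Each of these 4 passed without each of the 8 libraries. Whether values of this height come from the mRNA of the named gene was not tested.

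**Figure D5:**
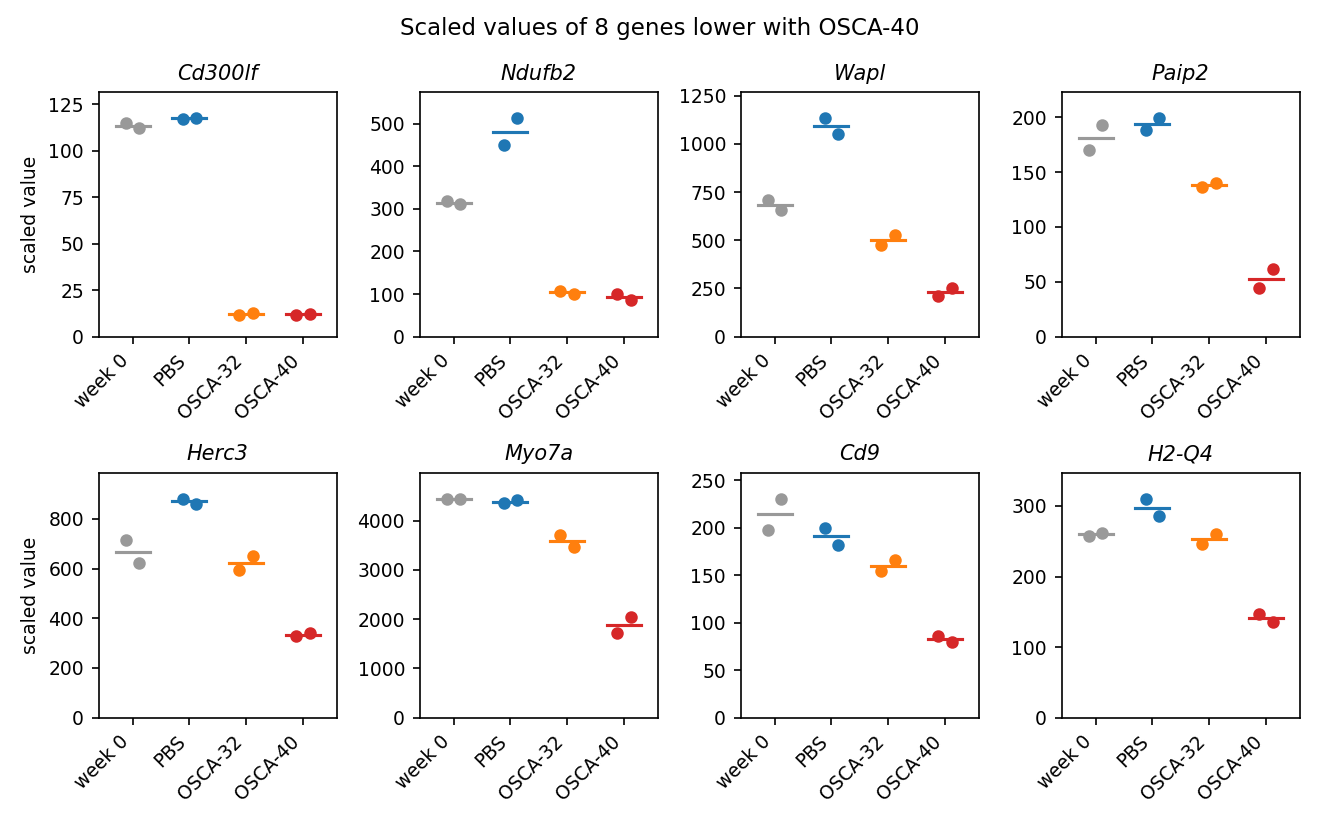
Scaled values (y axis, starting at 0) of 8 genes called lower with OSCA-40, in the 8 libraries, with 1 point per library and a line at the mean of each group of 2 on the x axis. Cd300lf and Ndufb2 are about as low with OSCA-32 as with OSCA-40, whereas Myo7a, Cd9 and H2-Q4 with OSCA-32 lie between PBS and OSCA-40.

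Several genes of intermediate level rose after scaling, and these too were chosen after their values were seen, except Ccdc107. Ccdc107, a coiled-coil protein gene, went from 23 and 30 to 54 and 45 as deposited (2.52 ± 0.18, adjusted p = 0.000273, limma). Gm20594, a predicted gene (chromosome 6, 79817916 to 79818364), went from 613 and 686 to 895 and 780 (2.02 ± 0.08, adjusted p = 1.85e-05, limma). Part of this direction was present without a graft. Gm20594 stood at 372 and 358 at week 0, and PBS was higher than week 0 by 0.77 (adjusted p = 0.0306, limma). With OSCA-32 its deposited values were 1170 and 1092. Both catalytic subunit genes of phosphorylase kinase, the enzyme that switches on glycogen breakdown, rose. The muscle form Phkg1 was 132 and 160 against 189 and 138 as deposited, overlapping there, and changed by 1.80 ± 0.14 (adjusted p = 0.000457, limma). The liver form Phkg2 was 23 and 28 against 31 and 26 as deposited, overlapping too, and changed by 1.78 ± 0.17 after scaling (adjusted p = 0.00114, limma). The ferritin heavy chain gene Fth1, of iron storage, was 20 and 21 against 21 and 23 as deposited, where the groups met at 21. It changed by 1.71 ± 0.21 after scaling (adjusted p = 0.00357, limma). Fyco1, an adaptor of autophagosome transport, was 11 and 13 against 15 and 16, at 1.94 ± 0.36, and lost the call without either PBS library (adjusted p = 0.127 and 0.0957, limma) or either OSCA-40 library (0.0693 and 0.0818).

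Some mouse genes were seen with one treatment alone. Of 31300 mouse genes listed, 35 were at 10 or more in both PBS libraries and at 0 in both OSCA-40 libraries, and 4 had the reverse arrangement. Between PBS and OSCA-32 the corresponding numbers were 14 and 7. Between week 0 and PBS the corresponding numbers were 1 and 3. Low values are resolved more coarsely with OSCA-40, as given above, and the part of this in the count was not tested. Piga, of the first step of GPI anchor synthesis, was 32 and 34 with PBS and listed at 0 with OSCA-40 (adjusted p = 0.0132, limma). The Piga call was lost without either PBS library or either OSCA-40 library. With OSCA-32 Piga was 2 and 21, so its value also differed widely between libraries of 1 group. The defensin genes Defa25, at 12 and 24, and Defb45, at 11 and 14 with PBS, were also listed at 0 with OSCA-40 and passed as lower; neither passed without either PBS library (adjusted p = 0.101 and 0.242 for Defa25, 0.132 and 0.193 for Defb45, limma), nor Defb45 without the second week 0 library (0.0548). The other 6 defensin genes tested did not pass; 5 had fold changes from 0.03 to 1.45, 1 was listed at 0 in both PBS libraries, and the median over the 8 was 0.47.

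Of the 10 mouse genes with the highest values, 5 were higher, 1 was lower and 4 did not pass. The 4 that did not pass had fold changes from -0.13 to 0.24. The pseudogene Gm10780, with 77.255% of its 31-base stretches shared, was 11589 and 12409 with PBS and 2467 and 2431 with OSCA-40 as deposited. It fell by 0.64 ± 0.06 on the log2 scale (adjusted p = 0.00143, limma) and passed without each of the 8 libraries. Gm10719, Gm10718 and Gm17132 were called higher at 0.28, 0.38 and 0.47; Gm10719 lost the call without either PBS or either OSCA-40 library (adjusted p from 0.0796 to 0.193, limma), and Gm10718 without either PBS library (0.0716 and 0.0599). Gm29013, a pseudogene of chromosome 1 (105244425 to 105244661), was 6141 and 6913 with PBS and 22540 and 15956 with OSCA-40, a change of 3.20 ± 0.29 (adjusted p = 0.000941, limma). Tlr1, a toll-like receptor gene with 20.134% of its 31-base stretches shared, was 9130 and 10005 against 5545 and 5200 as deposited and rose by 0.82 ± 0.07 after scaling (adjusted p = 0.000646, limma). Of the 48 tested genes of cytosolic ribosomal proteins, the most numerous list, 1 was called: Rpl36 was 29 and 24 against 3 and 2 as deposited, at -1.64 ± 0.24, and lost the call without the first PBS library (adjusted p = 0.0737, limma). The median of the 48 genes, 0.03, was close to that of all mouse genes. Rpl36 shares 94.051% of its 31-base stretches with other listed mouse genes.

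Of 217 canine genes tested, 125 were higher with OSCA-40 (57.6%) and 7 lower (3.23%) on the mouse scaling. Scaled by library totals in its place, 77 were higher and 95 lower. The filter admits a canine gene that reached a value of 10 in the 2 OSCA-40 libraries alone. The share called higher is therefore partly set by the filter. ENSCAFG00000030616 was listed at 0 with PBS and at 564602 and 582489 with OSCA-40, so it held 57.1% and 58.89% of those libraries. ENSCAFG00000030230 was listed at 0 with PBS and at 458 and 423 with OSCA-40. In the opposite direction, ENSCAFG00000031490 was 42333 and 49440 with PBS and 8 in both OSCA-40 libraries, and ENSCAFG00000030789 was 25 and 11 against 0 in both, the latter lost without either PBS library (adjusted p = 0.293 and 0.114, limma) or either week 0 library (0.131 and 0.119). Without the 2 canine genes that exceeded 5% of a library, canine genes held 10.8% ± 0.102 with PBS and 27.6% ± 1.69 with OSCA-40 (SD, n = 2 each), a difference of 16.83 percentage points. There were 36 canine genes at 10 or more in both OSCA-40 libraries and at 0 in both PBS libraries, against 1 in the reverse arrangement. The PBS mice received no canine cells, so a value under a canine gene does not by itself show canine RNA.

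The difference between the lines was tested directly for the 65 named mouse genes called against PBS. Of these, 31 differed between OSCA-40 and OSCA-32, 16 higher and 15 lower with OSCA-40, where 135 of all 7655 mouse genes tested differed (1.76%); the named genes were picked for their change with OSCA-40. Together with the 4 named canine genes the number that differed was 34, and leaving out OSCA-32 library 1 or 2 lowered it to 19 or 12, and either PBS library to 22. Pf4 was 46 and 46 with OSCA-32 as deposited and was higher with OSCA-40 by 1.79 ± 0.26 (adjusted p = 0.0181, limma). Hba-a2 was 157 and 173 with OSCA-32, lower than OSCA-40 by a scaled difference of 1.31 ± 0.07 (adjusted p = 0.00059, limma). Saa2 was 3 and 4 with OSCA-32, and OSCA-40 was higher by 2.63 ± 0.32 (adjusted p = 0.0093, limma). As given above, Saa2 entered the test only with its OSCA-40 values. Myo7a was 2552 and 2449 with OSCA-32, and OSCA-40 was lower, at -0.93 ± 0.08 (adjusted p = 0.0028, limma).

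Other genes did not pass the test between the lines. Cd300lf was 8 and 9 with OSCA-32, and the difference was -0.01 with a 95% interval from -0.31 to 0.28. Ndufb2 was 74 and 71, at -0.16 with an interval from -0.41 to 0.09. The difference for mt-Nd4 was -0.05, from -0.41 to 0.30, and that for Ccdc107 was 0.43, from 0.01 to 0.86, with an adjusted p of 0.299 (limma). For Rdh16f1, which was 19 and 26 with OSCA-32 and listed at 0 at week 0, the difference was 0.93, from -0.10 to 1.96.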

How the data were processed

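Exosomes were enriched from pooled serum with ExoQuick, and libraries were made from total RNA with a stranded pico-input kit, as the labels' protocols state. Tools listed in the submitters' processing notes are kallisto 0.43.0, Trimmomatic 0.33.0 and FastQC 0.11.5; the genome builds listed there are CanFam3.1 and GRCm38.p5. The deposited values are treated as a score: whole numbers that sum to nearly the same total in each library and behave as whole-number TPM across the 2 species. They are not counts, so no count test was run, and a 0 is reported as listed at 0.

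A gene was tested if 2 or more of the 8 libraries reached a value of 10 (7655 mouse and 217 canine of 52016 listed). A gene of either species could thus enter through its OSCA-40 values, as the mouse genes Saa2, Gm21139 and Obox4-ps23 did. Libraries were scaled by an unweighted trimmed mean of log ratios over mouse genes, trimming 30% of ratios and 5% of levels at each end. limma 3.58.1 (R 4.3.3) was fitted to log2(scaled value + 1) over all 8 libraries with a mean per group (4 residual degrees of freedom) and a variance trend, and p-values were adjusted by Benjamini-Hochberg over all genes tested. The fit was checked on simulated data.

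GENCODE mouse release 21 (GRCm38) gave symbols and coordinates; it names 31171 of 31300 mouse identifiers. Shared sequence was measured by stretches of 31 bases and mitochondrial copies by BLAST 2.17.0, both among listed mouse genes only. Named genes were up to 10 higher and 10 lower by fold with an established symbol and groups that did not overlap after scaling, up to 10 higher also as deposited, the called and highest uncalled members of each of 30 lists, the 10 with the highest values, and 2 canine genes higher and 2 lower; 16 others were chosen after their values were seen. Not all genes that the rule selects are described, and 1 is not reported here. The comparison, the rule and the lists were chosen with earlier results of these data known. Alternatives covered scaling, pseudocount, filter, samples fitted, replicate block, variance trend, reference group and each library left out, and the summing of mitochondrial mRNAs with their copies was added after seeing the data.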

Additional observations from a re-analysis of the deposited data

Results flagged for a closer look

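The following named genes passed the limma test of the difference between the 2 lines, given as OSCA-40 minus OSCA-32 on the log2 scale. Higher with OSCA-40 were Saa2 (2.63), Pf4 (1.79), Tmsb4x (1.36), B2m (1.36), Hba-a2 (1.31), H2-T24 (1.86), Pecam1 (0.84) and Tlr1 (0.40). Phkg2 (1.51) and Phkg1 (1.22), the phosphorylase kinase genes, were higher too, as were the predicted genes Gm29013 (1.85), Gm20594 (0.63), Gm10718 (0.36) and Gm10719 (0.29). Lower with OSCA-40 were Cd9 (-0.94), H2-Q4 (-0.84), Ltbp1 (-0.67), Wapl (-1.11), Paip2 (-1.39), Herc3 (-0.89), Myo7a (-0.93), Mdm2 (-2.12), Rpl36 (-1.60), mt-Co2 (-3.10), Rpl39-ps (-4.42) and Rps12-ps3 (-3.58). Summed with the copy Gm28661, however, scaled mt-Co2 values were 194.6 and 156.6 with OSCA-40 and 154.0 and 172.6 with OSCA-32, which overlap. Deposited values with OSCA-40 were 0 and 1 for Rpl39-ps, 1 and 0 for Rps12-ps3 and 1 and 1 for Mdm2. Folds at such values depend on the 1 added before the logarithm. Other listed mouse genes share 94.051% of the 31-base stretches of Rpl36, 74.38% of Rpl39-ps and 100% of Rps12-ps3. Among the genes higher they share 91.031% of Hba-a2, 86.998% of Gm10719 and 74.907% of Gm10718. Sums of these genes with their copies were not tested between the lines. The canine genes ENSCAFG00000030616 (18.58) and ENSCAFG00000030230 (2.81) were higher and ENSCAFG00000031490 (-14.15) lower; the first was listed at 0 and 13 with OSCA-32.

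For genes listed at 0 in both libraries of a line, no fold is given. Speer4c (adjusted p = 0.00386, limma), Ranbp2-ps8 (adjusted p = 0.0277) and Vcan (adjusted p = 0.0277) were listed at 0 with OSCA-40. Gm28661 (adjusted p = 0.00059) and Obox4-ps23 (adjusted p = 0.0416) were listed at 0 with OSCA-32.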

How the results depend on the processing

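The counts depend on the scaling, on the samples fitted and on the variance model. With library totals only, 15 mouse genes were higher and 6539 lower, and 77 canine genes were higher and 95 lower. Fitting only the 4 libraries compared gave 125 and 65 mouse genes and 3 canine genes lower. Without a variance trend the numbers were 92 and 96 mouse genes and 4 canine genes lower. Without a filter 814 mouse genes were lower, 1132 canine genes higher and 23 lower, and with a mean of at least 50 there were 64 canine genes higher. Leaving out 1 library gave 98 to 231 mouse genes higher, 56 to 249 lower and 3 to 5 canine genes lower. The canine share differed by 16.83 points without the 2 dominant genes and by 52.86 against week 0. Of the named genes, 34 differed between the lines, 21 with a mean of at least 50, 18 without a variance trend, and 12 to 25 with 1 library left out.

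With library totals only, 18 named genes took the opposite sign: Trf -0.81, Xaf1 -0.42, Pecam1 -0.33, Clcn7 -0.89, mt-Nd4 -0.17, mt-Cytb -0.31, Ttyh1 -0.19, Gm10719 -1.39, Gm10718 -1.29, Gm17132 -1.20, Tlr1 -0.85, Vwf -1.29, Itga2b -1.22, Hba-a1 -0.42, Hbb-bs -1.13, Tcirg1 -1.001, Fn1 -1.37 and Oasl2 -1.01. mt-Co2 turned to 1.95 against week 0 and to 1.27 when summed with its copy. Of 69 named genes called, 38 passed without each of the 8 libraries, and the other 31 each lost the call without at least 1 PBS library.

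Replicate numbers did not pair the libraries: the deviations of libraries with the same number had correlations from -0.057 to 0.006. With the replicate block, 195 mouse genes were higher and 135 lower, and 6 named genes lost the call.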
